A study of Homo sapiens with 6 samples.

Results

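PDGFRA, PDGFRB, PDGFA, PDGFC, PDGFD, FGF2, FGF5, FGF7, FGFR1 and HGF encode growth factors and growth factor receptors of the PDGF, FGF and HGF families, and their RNA was followed here in human fibroblasts. The genes were taken by symbol from the table of expression values, which gave 10 genes of the 57232 in the table. A mean of at least 1 FPKM over all libraries was asked of a gene before it was tested, and 9 of the 10 genes passed, among 10416 genes in all. PDGFA, at a mean of 0.626 FPKM, did not pass. FPKM scales the fragments of a gene by the length of the gene and by the depth of the library.

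The cells were IMR90, a line of human fetal lung fibroblasts, and the study asked what ectopic ARID1B, a DNA-binding subunit of the SWI/SNF chromatin remodeling complex, does to their transcriptional profile. Cells carried either ARID1B cDNA (3 libraries) or the empty vector (3 libraries), were selected with puromycin for stable integration, and were collected at day 6 after infection. Both groups therefore share the line, the passage, the viral infection, the drug and the serum-containing medium. The promoter that drove the cDNA is not given in the sources used here, and the study calls the replicates of these profiles biological, while the labels do not say whether each came from its own infection. The p-values measure the spread between these libraries.

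Platelet-derived growth factors are dimers that bind the receptor tyrosine kinases PDGFRα and PDGFRβ on mesenchymal cells, where they drive division and migration. Fibroblast growth factors bind FGFR tyrosine kinases together with heparan sulfate, some acting on the fibroblasts that make them and some, such as FGF7, on neighboring epithelium. Hepatocyte growth factor is also made by fibroblasts and acts through the receptor MET, which is mainly an epithelial protein. Lung fibroblasts carry the PDGF receptors and FGFR1 themselves and make several of these ligands.

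The ectopic gene followed the labels, with 21.0 to 32.5 FPKM of ARID1B in ARID1B cells and 1.31 to 2.29 FPKM in vector cells. The libraries held between 63386813 and 91924514 reads, worked out from the spacing of low FPKM values. All 17 fibroblast markers passed the filter on low values, at summed levels of 3008 to 4518 FPKM in ARID1B cells and 3141 to 4568 FPKM in vector cells. Epithelial markers (8 genes, SFTPC and NKX2-1 among the 4 listed at 0 in every library) summed to at most 0.208 FPKM in ARID1B cells and 0.259 FPKM in vector cells. Blood cell markers (8 genes) summed to at most 0.0631 FPKM in ARID1B cells and 0.0819 FPKM in vector cells. Vector replicate 2 stood apart on the first principal component, at 48.5 against -20.0 to 3.63 for the other 5 libraries, and this component held 63.8% of the variance. In 85.0% of the genes tested the value of vector replicate 3 lay between those of vector replicates 1 and 2, and in 69.2% the same held for ARID1B replicate 3. The changes of the 9 tested genes of the axis are therefore given with and without vector replicate 2. Without it the vector group holds replicates 1 and 3 alone. Limma takes the libraries as independent, and whether replicate 3 of each group is independent of replicates 1 and 2 was not tested.

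None of the 9 genes tested passed an adjusted p of 0.05 in limma, and the same fit called 3 of 10416 genes, or 0.0288%, all higher in ARID1B cells. FGF2, at 1.57-fold in the ratio of means, was the sole gene of the axis with an unadjusted p under 0.05, which 4.64% of all genes reached in the higher direction (483 genes) and 619 genes in the lower. FGF2 missed that level without ARID1B replicate 2, with an unadjusted p of 0.0558 and an adjusted p of 0.540 in limma, and FGF5 reached it there, with an unadjusted p of 0.0186 and an adjusted p of 0.415 in limma. FGF2 also missed it without ARID1B replicate 3, with an unadjusted p of 0.0727 and an adjusted p of 0.976 in limma. The 2 PDGF receptors, PDGFC, PDGFD and HGF spread widely between vector libraries, by 2.38-fold to 29.9-fold, and their ARID1B values lay inside that spread. FGF2 and PDGFA were the genes whose groups did not overlap, both higher in ARID1B cells, that is 2 of 10 genes, of which 1 was tested. Among all genes tested 9.44% were higher without overlap, so 1 of 9 is close to the share of all genes. The plot of levels by library shows all 10 genes.

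**Figure D1:**
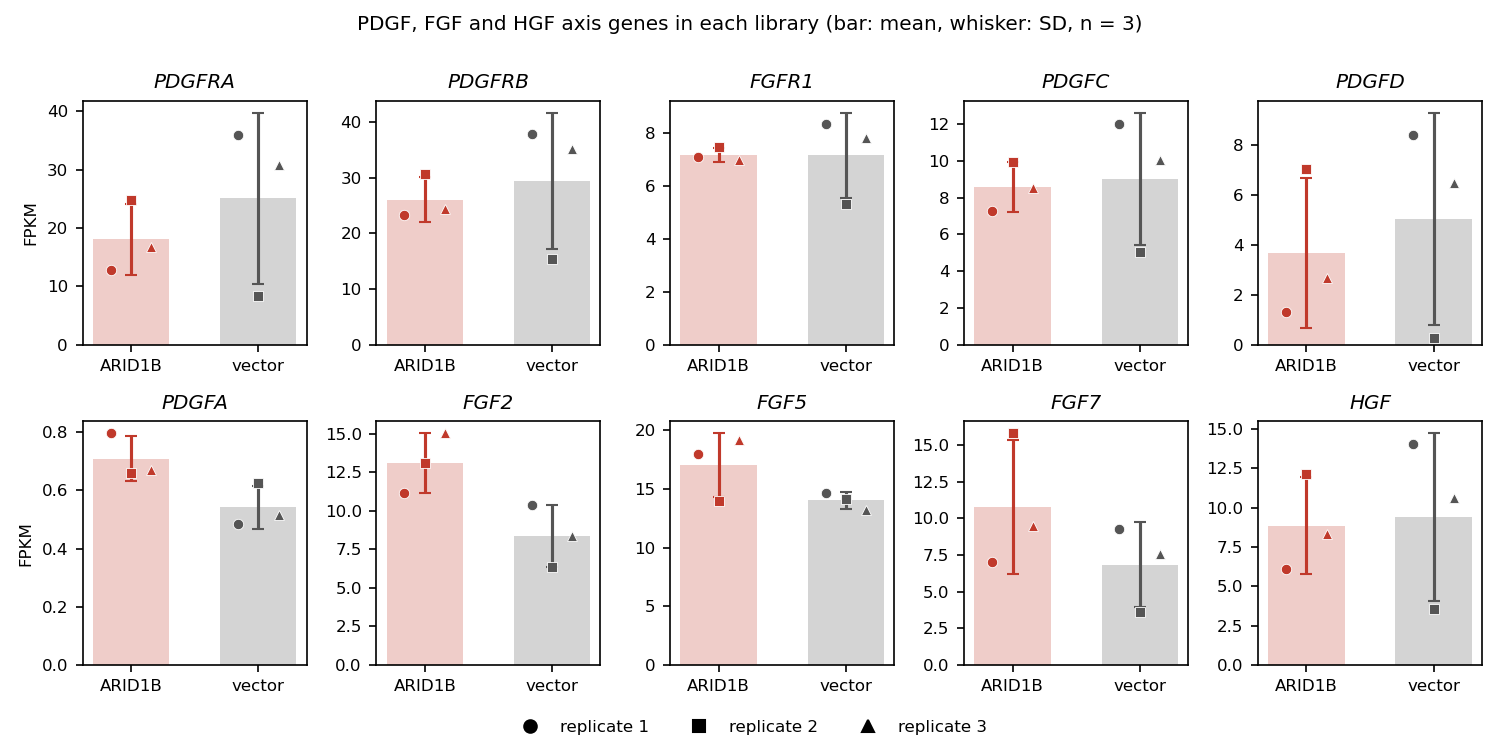
Levels in FPKM of the 10 genes in ARID1B cells (left, red) and vector cells (right, gray), where each point is 1 library marked by its replicate number, each bar the mean and each whisker the SD (n = 3). ARID1B values lie within the spread of the vector libraries for PDGFRA, PDGFRB, FGFR1, PDGFC, PDGFD and HGF, while the groups do not overlap for FGF2 and PDGFA.

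By FPKM the PDGF receptors were the most abundant RNAs of the axis. PDGFRA (ENSG00000134853), which encodes the receptor that binds PDGF-AA and PDGF-CC, measured 12.8, 24.7 and 16.7 FPKM in ARID1B replicates 1, 2 and 3, against 36.0, 8.37 and 30.8 FPKM in vector replicates 1, 2 and 3. The groups overlapped, because vector replicate 2 was the lowest of the 6 libraries and the other 2 vector libraries were the highest. The means were 18.1 ± 6.09 FPKM in ARID1B cells and 25.1 ± 14.7 FPKM in vector cells (SD, n = 3 each). The log2 change, on the scale of log2(FPKM + 1) that is used for every change below, was -0.27 (SE 0.548, 95% interval -1.59 to 1.05, limma adjusted p = 0.860). Without vector replicate 2 it was -0.90 (SE 0.263), with an unadjusted p of 0.0161 and an adjusted p of 0.123 in limma. The gene AC058822.1, which shares 1533 exonic bases with PDGFRA on the same strand in GENCODE v29, was not analysed here.

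PDGFRB (ENSG00000113721) encodes the receptor that binds PDGF-BB and PDGF-DD. Its levels were 23.3, 30.6 and 24.4 FPKM in ARID1B replicates 1, 2 and 3, and 37.8, 15.5 and 35.2 FPKM in vector replicates 1, 2 and 3. The libraries stood in the same order as for PDGFRA, with vector replicate 2 lowest, so that the groups overlapped. PDGFRB averaged 26.1 ± 3.96 FPKM in ARID1B cells and 29.5 ± 12.2 FPKM in vector cells (SD, n = 3 each), a log2 change of -0.08 (SE 0.342, 95% interval -0.91 to 0.74, limma adjusted p = 0.937). The change was -0.48 (SE 0.135, limma adjusted p = 0.114) without vector replicate 2. In that fit 324 of 10416 genes, or 3.11%, were called, and 0 of the 9 genes of the axis. PDGFRA and PDGFRB were the 2 that were lower at an unadjusted p under 0.05, which 13.7% of all genes reached in that direction.

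The promoters of both receptors are shown because their RNAs stood in 1 order across the libraries. They are the 250 bases before each start site in RefSeq (GRCh38.p14), read 5′ to 3′ on the strand of the gene, and PDGFRA has 2 such starts. RefSeq promoters were matched for 8 of the 10 genes, and not for PDGFC and FGFR1. Capitals mark matches to 4 motifs, searched on both strands, and no matches overlap in the promoters printed. The TATA box was searched as TATAAA, which 10.7% of 35116 promoters of this length hold. The GC box was searched as GGGCGG, held by 42.6% of them. The CAAT element was searched as CCAAT, held by 32.0%. The AP-1 element was searched as TGANTCA, held by 6.57%.
PDGFRA first start, chr4:54229043-54229292, plus strand: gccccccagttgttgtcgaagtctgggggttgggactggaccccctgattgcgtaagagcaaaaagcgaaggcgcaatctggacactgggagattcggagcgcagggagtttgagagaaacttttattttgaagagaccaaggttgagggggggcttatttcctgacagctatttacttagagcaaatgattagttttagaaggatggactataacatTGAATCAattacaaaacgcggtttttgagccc
PDGFRA second start, chr4:54233710-54233959, plus strand: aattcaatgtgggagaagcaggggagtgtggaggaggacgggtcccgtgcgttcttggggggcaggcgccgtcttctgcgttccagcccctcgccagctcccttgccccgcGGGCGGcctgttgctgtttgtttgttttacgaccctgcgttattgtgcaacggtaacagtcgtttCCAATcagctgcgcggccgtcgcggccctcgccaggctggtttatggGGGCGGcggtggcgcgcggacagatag
PDGFRB, chr5:150155846-150156095, minus strand: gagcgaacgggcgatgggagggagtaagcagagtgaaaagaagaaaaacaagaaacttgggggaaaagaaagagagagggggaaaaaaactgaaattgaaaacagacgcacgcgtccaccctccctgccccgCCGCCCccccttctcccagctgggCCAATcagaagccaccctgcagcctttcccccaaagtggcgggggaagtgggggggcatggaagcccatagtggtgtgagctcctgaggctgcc
The first PDGFRA promoter held an AP-1 match beginning 32 bases before the start and no GC box, at a GC content of 46.8% against a median of 58% over all promoters. The second held GC boxes beginning 139 and 27 bases and a CAAT element beginning 74 bases before the start, at 64% GC. The PDGFRB promoter held a GC box 118 bases and a CAAT element 94 bases before its start, at 58.4% GC. A match is a description of letters, not a binding site.

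FGFR1 (ENSG00000077782), the FGF receptor typical of mesenchymal cells, was the steadiest of the receptors. It measured 7.09, 7.47 and 6.98 FPKM in ARID1B replicates 1, 2 and 3, against 8.35, 5.33 and 7.83 FPKM in vector replicates 1, 2 and 3. The ARID1B libraries differed by no more than 1.07-fold and lay inside the range of the vector libraries, whose lowest was again replicate 2. The means of 7.18 ± 0.255 FPKM in ARID1B cells and 7.17 ± 1.61 FPKM in vector cells (SD, n = 3 each) gave a log2 change of 0.02 (SE 0.167, 95% interval -0.38 to 0.42, limma adjusted p = 0.968). The change was -0.15 without vector replicate 2 (limma adjusted p = 0.280). LETM2, antisense to FGFR1 with 138 shared exonic bases, was at 0.217 to 0.334 FPKM in ARID1B cells and 0.221 to 0.466 FPKM in vector cells, and AC087623.1, also antisense to FGFR1, was listed at 0.

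PDGFD (ENSG00000170962), a ligand of PDGFRβ that is secreted in a latent form and cleaved outside the cell, varied most between libraries. It measured 1.29, 7.02 and 2.65 FPKM in ARID1B replicates 1, 2 and 3, and 8.39, 0.281 and 6.45 FPKM in vector replicates 1, 2 and 3. Its highest and lowest libraries were both vector libraries and differed by 29.9-fold, a range that 0.279% of the genes tested reached over the 6 libraries. Vector replicate 2 still held 189 reads of PDGFD, so the low value does not rest on a few counts. DDI1, which shares 193 exonic bases with PDGFD on the other strand, was listed at 0 in every library. The ARID1B libraries differed by 5.44-fold among themselves. The log2 change was -0.14 (SE 0.838, 95% interval -2.16 to 1.88, limma adjusted p = 0.958), and -1.04 (SE 0.510, limma adjusted p = 0.285) without vector replicate 2.

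PDGFC (ENSG00000145431), the other latent PDGF and a ligand of PDGFRα, had the libraries in the same order as the PDGF receptors. Its levels were 7.25, 9.94 and 8.50 FPKM in ARID1B replicates 1, 2 and 3, against 12.0, 5.04 and 10.0 FPKM in vector replicates 1, 2 and 3. The ARID1B libraries lay between the lowest and the highest vector library. PDGFC averaged 8.56 ± 1.35 FPKM in ARID1B cells and 9.03 ± 3.59 FPKM in vector cells (SD, n = 3 each), and the log2 change was -0.0049 (SE 0.297, 95% interval -0.72 to 0.71, limma adjusted p = 0.995). It was -0.33 without vector replicate 2 (limma adjusted p = 0.238).

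PDGFA (ENSG00000197461), which encodes the PDGF-A chain that binds PDGFRα, was the rarest RNA of the axis and went against the order of the other PDGF ligands. It measured 0.798, 0.661 and 0.669 FPKM in ARID1B replicates 1, 2 and 3, and 0.486, 0.627 and 0.514 FPKM in vector replicates 1, 2 and 3. All ARID1B libraries were above all vector libraries, though ARID1B replicate 2 and vector replicate 2 lay close together. These levels rest on 185 to 349 reads per library, and the means were 0.709 ± 0.0768 FPKM in ARID1B cells and 0.542 ± 0.0745 FPKM in vector cells (SD, n = 3 each). In the fit with no filter on low values its log2 change was 0.15 (SE 0.080, limma adjusted p = 0.709). PDGFB, the remaining PDGF ligand, reached at most 0.0179 FPKM in ARID1B cells and 0.0571 FPKM in vector cells.

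HGF (ENSG00000019991), the ligand of MET, also had its 2 extreme values in vector cells. Its levels were 6.09, 12.1 and 8.34 FPKM in ARID1B replicates 1, 2 and 3, against 14.0, 3.55 and 10.6 FPKM in vector replicates 1, 2 and 3. The groups overlapped, and ARID1B replicate 2 was the ARID1B library nearest to vector replicates 1 and 3. HGF averaged 8.86 ± 3.06 FPKM in ARID1B cells and 9.40 ± 5.35 FPKM in vector cells (SD, n = 3 each). The ratio of these means was 0.943, while the log2 change, a difference of mean log2 values, was of the other sign at 0.04 (SE 0.472, 95% interval -1.10 to 1.19, limma adjusted p = 0.976). The change was -0.47 without vector replicate 2 (limma adjusted p = 0.358). The promoters of PDGFD and HGF are set beside each other because both RNAs had the same 3 highest libraries, and the same lowest one, as the PDGF receptors.
PDGFD, chr11:104164148-104164397, minus strand: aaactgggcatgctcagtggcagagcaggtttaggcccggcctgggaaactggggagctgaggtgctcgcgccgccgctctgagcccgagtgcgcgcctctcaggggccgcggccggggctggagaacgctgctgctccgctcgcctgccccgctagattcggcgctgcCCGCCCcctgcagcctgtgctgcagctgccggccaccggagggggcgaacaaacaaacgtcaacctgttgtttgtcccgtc
HGF, chr7:81770048-81770297, minus strand: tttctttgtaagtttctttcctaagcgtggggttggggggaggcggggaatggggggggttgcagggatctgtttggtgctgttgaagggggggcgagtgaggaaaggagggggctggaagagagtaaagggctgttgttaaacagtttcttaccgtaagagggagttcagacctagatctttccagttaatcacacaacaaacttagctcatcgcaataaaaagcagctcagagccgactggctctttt
The PDGFD promoter held a GC box 81 bases before its start, at 69.2% GC, while the HGF promoter held none of the 4 motifs, at 50% GC. With none in HGF, no motif of the 4 could be common to PDGFRA, PDGFRB, PDGFD and HGF. PDGFC and FGFR1, which had the same 3 highest libraries, had no matched promoter and are not part of this comparison. PDGFRB, PDGFD and the second start of PDGFRA each held a GC box, as do 42.6% of all promoters.

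FGF2 (ENSG00000138685), a heparin-binding FGF that acts on fibroblasts themselves and leaves the cell without a signal peptide, measured 11.1, 13.1 and 15.0 FPKM in ARID1B replicates 1, 2 and 3, against 10.4, 6.32 and 8.36 FPKM in vector replicates 1, 2 and 3. Every ARID1B library was above every vector library, by a narrow margin between ARID1B replicate 1 and vector replicate 1. The means were 13.1 ± 1.95 FPKM in ARID1B cells and 8.35 ± 2.02 FPKM in vector cells (SD, n = 3 each), a ratio of 1.57. The log2 change was 0.61 (SE 0.195, 95% interval 0.13 to 1.08), with an unadjusted p of 0.0197 and an adjusted p of 0.390 in limma. It was 0.44 (SE 0.150, limma adjusted p = 0.159) without vector replicate 2 and 0.39 (SE 0.1002, limma adjusted p = 0.334) after correction for GC content and length. The promoter of FGF2 is printed as that of the tested gene whose groups did not overlap.
FGF2, chr4:122826581-122826830, plus strand: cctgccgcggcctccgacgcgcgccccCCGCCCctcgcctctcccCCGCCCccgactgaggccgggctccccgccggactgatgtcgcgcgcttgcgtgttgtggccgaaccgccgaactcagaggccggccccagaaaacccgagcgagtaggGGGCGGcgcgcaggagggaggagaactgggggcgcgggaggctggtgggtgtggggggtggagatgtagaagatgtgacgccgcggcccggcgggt
It held GC boxes beginning 223, 205 and 96 bases before the start, at 75.2% GC. NUDT6, which lies antisense to FGF2 and shares 804 exonic bases with it in GENCODE v29, was low in all libraries, at 0.320 to 0.428 FPKM in ARID1B cells and 0.336 to 0.382 FPKM in vector cells. The libraries came from a stranded kit, but the strand setting of the counting is not given in the sources used here.

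A tested gene whose pattern over the 6 libraries was close to that of FGF2 was TMX3, which encodes a disulfide isomerase of the endoplasmic reticulum. The likeness is the mean absolute difference of log2(FPKM + 1) after the mean of each gene is taken off, and it was 0.056 for TMX3. TMX3 measured 12.7, 14.7 and 15.4 FPKM in ARID1B replicates 1, 2 and 3, against 12.0, 6.82 and 10.0 FPKM in vector replicates 1, 2 and 3. The groups did not overlap, and its log2 change was 0.55 (SE 0.205, limma adjusted p = 0.426), or 0.35 without vector replicate 2.

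FGF7 (ENSG00000140285), known as keratinocyte growth factor, signals from mesenchyme to epithelium through a splice form of FGFR2. It measured 6.99, 15.8 and 9.50 FPKM in ARID1B replicates 1, 2 and 3, against 9.26, 3.63 and 7.59 FPKM in vector replicates 1, 2 and 3. ARID1B replicate 2 was the highest library and vector replicate 2 the lowest, and ARID1B replicate 1 lay below vector replicates 1 and 3. The means of 10.8 ± 4.56 FPKM in ARID1B cells and 6.83 ± 2.90 FPKM in vector cells (SD, n = 3 each) stood in a ratio of 1.58, close to that of FGF2, but with an SE of the log2 change of 0.383 (log2 change 0.60, 95% interval -0.33 to 1.52, limma adjusted p = 0.631). The log2 change was 0.26 without vector replicate 2 (limma adjusted p = 0.672). The pseudogenes FGF7P1 and FGF7P2, which could take reads from FGF7, were listed at 0 in every library.

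FGF5 (ENSG00000138675), a secreted FGF known as a regulator of the hair cycle, was the steadiest gene of the axis over the 6 libraries. Its levels were 17.9, 13.9 and 19.2 FPKM in ARID1B replicates 1, 2 and 3, and 14.6, 14.2 and 13.2 FPKM in vector replicates 1, 2 and 3. ARID1B replicates 1 and 3 were above all vector libraries, while ARID1B replicate 2 lay among them. FGF5 averaged 17.0 ± 2.74 FPKM in ARID1B cells and 14.0 ± 0.710 FPKM in vector cells (SD, n = 3 each), a log2 change of 0.25 (SE 0.144, 95% interval -0.09 to 0.60, limma adjusted p = 0.590). The change was 0.26 without vector replicate 2 (limma adjusted p = 0.343) and 0.06 after correction for GC content and length (limma adjusted p = 0.964). CFAP299, which shares 136 exonic bases with FGF5 on the same strand, was at 0.161 to 0.192 FPKM in ARID1B cells and 0.133 to 0.167 FPKM in vector cells.

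**Figure D2:**
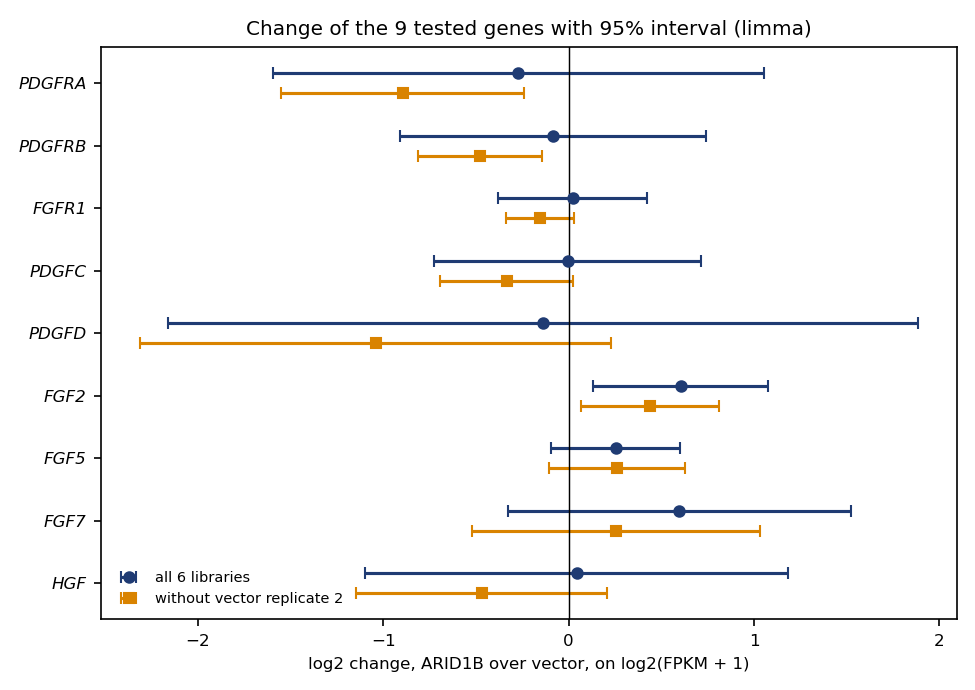
Log2 change of each of the 9 tested genes, ARID1B over vector, on log2(FPKM + 1), with its 95% interval from limma in all 6 libraries (circles) and without vector replicate 2 (squares). Intervals in all libraries span 0 for every gene but FGF2, and without vector replicate 2 the points of PDGFRA, PDGFRB, FGFR1, PDGFC, PDGFD and HGF all lie below 0.

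Over the 9 genes tested the log2 change was positive in 5 with all libraries and in 3 without vector replicate 2, while the share of all genes tested was 47.6% and 47.8%. The median change of the 9 genes was 0.02 with all libraries, beside -0.02 over all genes tested. Without vector replicate 2 it was -0.33, beside -0.01 over all genes tested. The median therefore moved with 1 library. Without vector replicate 1 instead, the changes of all 9 genes were positive, from 0.10 for PDGFRA to 0.83 for FGF7. The median over all genes tested was -0.02 in that fit.

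Most genes of the axis shared their highest libraries, which came from both groups. PDGFRA, PDGFRB, FGFR1, PDGFC, PDGFD and HGF, that is 6 of 10 genes, had ARID1B replicate 2, vector replicate 1 and vector replicate 3 as their 3 highest libraries, as did 12.1% of the genes tested. Vector replicate 2 was the lowest library for 8 of 10 genes, all but PDGFA and FGF5, and for 37.5% of the genes tested. Levels differed by over 2-fold between the highest and the lowest library in 7 of the 9 genes tested and in 33.1% of all genes tested.

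Markers of dividing cells ran the other way. The same 3 libraries were the lowest for 8 of 8 such markers, as they were for 17.3% of the genes tested. The summed level of these markers was 86.6, 45.9 and 78.8 FPKM in ARID1B replicates 1, 2 and 3, against 33.0, 94.9 and 42.6 FPKM in vector replicates 1, 2 and 3. MKI67, which is made in cycling cells, measured 9.73, 3.52 and 8.14 FPKM in ARID1B replicates 1, 2 and 3, against 2.83, 6.49 and 3.38 FPKM in vector replicates 1, 2 and 3. Of the 8 markers 0 were called by limma. All 8 changes were positive, beside 47.6% of all genes tested. The median log2 change of the markers was 0.30 with all libraries and 0.70 without vector replicate 2. The study itself reports that ARID1B arrested the growth of IMR90 cells and lowered BrdU incorporation. From these profiles it reports a link to signatures of cell cycle arrest. The part of the difference in these markers between libraries in the levels of the PDGF receptors, PDGFC, PDGFD and HGF was not tested.

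Some markers of fibroblasts had the same highest libraries as the PDGF receptors. Among the tested markers of endothelial cells, smooth muscle and pericytes TEK alone did so. Under the filter on low values VWF, DES and MYOCD did so too, at means of 0.173, 0.799 and 0.448 FPKM over all libraries. The pattern was thus not particular to fibroblast markers. Of 17 fibroblast markers 11 had the same 3 libraries highest, with 0 higher and 0 lower by limma in all libraries and a median log2 change of -0.10. Without vector replicate 2 the median was -0.35 and S100A4, a calcium-binding protein, was called lower (log2 change -0.69, limma adjusted p = 0.0473). That fit called 3.11% of all genes tested. TEK, an endothelial receptor, measured 1.72, 3.48 and 2.23 FPKM in ARID1B replicates 1, 2 and 3, against 3.31, 0.802 and 2.85 FPKM in vector replicates 1, 2 and 3, and was the sole endothelial marker tested. CDH5, which defines endothelial cells, was listed at 0 in every library, and the 7 endothelial markers summed to 1.90 to 3.66 FPKM in ARID1B cells and 0.988 to 3.76 FPKM in vector cells. Smooth muscle and pericyte markers (8 genes, 5 tested, 0 called) summed to 103 to 173 FPKM in ARID1B cells and 87.0 to 111 FPKM in vector cells. ACTA2 held 64.6 to 134 FPKM of this in ARID1B cells and 51.1 to 83.5 FPKM in vector cells. Its highest vector library was replicate 2, against 51.1 and 53.8 FPKM in vector replicates 1 and 3. The part of fibroblast and vessel cells in the levels of the axis was not tested either. In bulk RNA fewer cells of a type and less RNA per cell cannot be told apart.

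**Figure D3:**
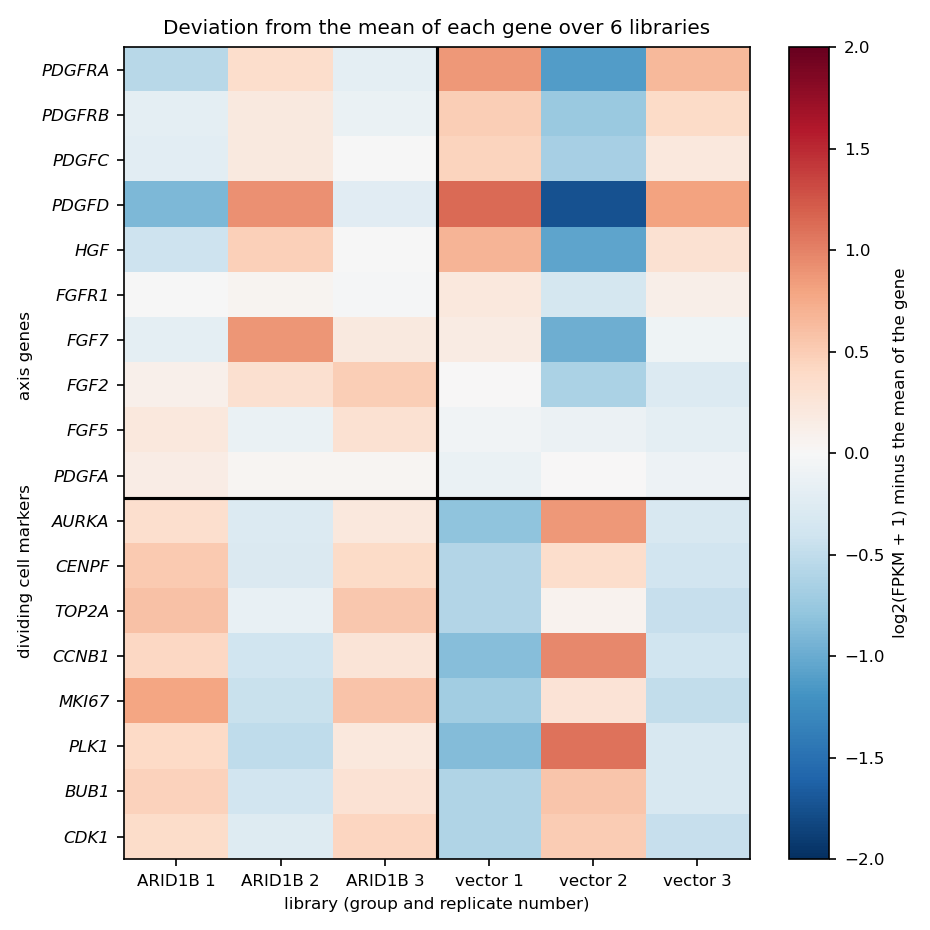
Deviation of log2(FPKM + 1) from the mean of each gene over 6 libraries (red above, blue below), for the 10 genes of the axis and 8 markers of dividing cells, with the ARID1B libraries left of the vector libraries. PDGFRA, PDGFRB, PDGFC, PDGFD, HGF and FGFR1 are above their mean in ARID1B replicate 2, vector replicate 1 and vector replicate 3, where the markers of dividing cells are below theirs.

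A ratio of 2 genes within a library does not depend on the scaling of that library, and 3 ratios were compared by an exact two-sided permutation test, in which 3 against 3 libraries cannot go below p = 0.1. PDGFRA over PDGFRB was 0.549, 0.808 and 0.687 in ARID1B replicates 1, 2 and 3, against 0.953, 0.541 and 0.876 in vector replicates 1, 2 and 3. PDGFRA was thus below PDGFRB in FPKM in all 6 libraries, and the difference of the mean log2 ratios was -0.19 (exact p = 0.6). FGF7 over FGF2 was 0.629, 1.21 and 0.632 in ARID1B replicates 1, 2 and 3, against 0.893, 0.574 and 0.908 in vector replicates 1, 2 and 3. The groups overlapped, and the difference of the mean log2 ratios was 0.02 (exact p = 1). HGF over its receptor MET was 1.08, 3.08 and 1.54 in ARID1B replicates 1, 2 and 3, against 4.61, 0.741 and 3.38 in vector replicates 1, 2 and 3. The vector libraries held both extremes, with a difference of the mean log2 ratios of -0.39 (exact p = 0.7). The p adjusted over the 3 ratios was 1 for each. The level of a ratio, and so its side of 1, depends on the gene lengths behind the FPKM values, while the difference of its log2 means does not.

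Without vector replicate 2 the differences of the mean log2 ratios were -0.44 for PDGFRA over PDGFRB, -0.20 for FGF7 over FGF2 and -1.19 for HGF over MET. The sign of the FGF7 and FGF2 ratio difference thus turned without vector replicate 2. It also turned without ARID1B replicate 2, at -0.30. Without vector replicate 1 the sign of the HGF and MET ratio difference turned, at 0.12.

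**Figure D4:**
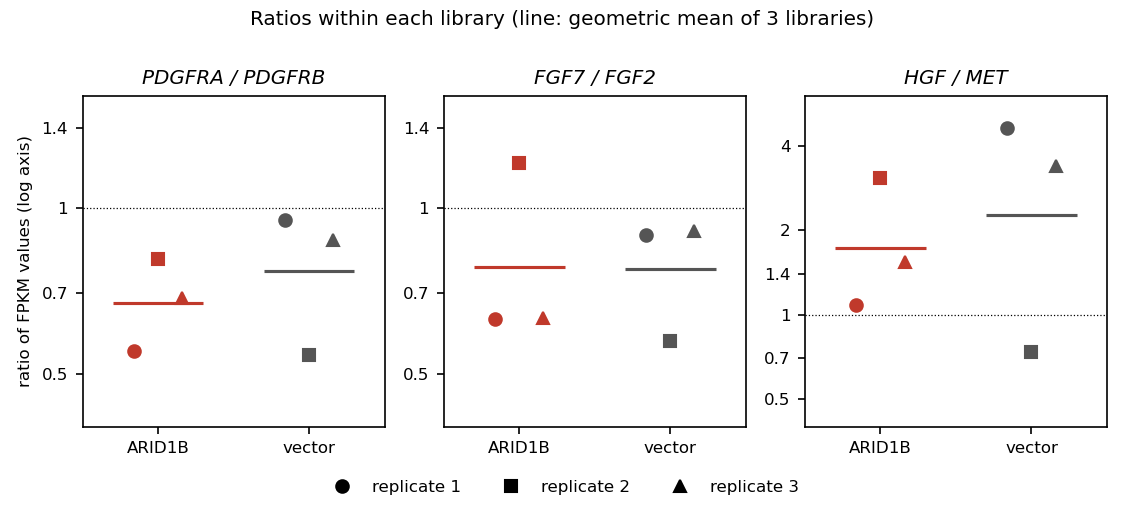
Ratio of FPKM values within each library on a log axis, for PDGFRA over PDGFRB, FGF7 over FGF2 and HGF over MET, with 3 ARID1B libraries (red) left of 3 vector libraries (gray), the geometric mean of each group as a line and equality as a dotted line. The groups overlap in each panel, and vector replicate 2 is the lowest vector library in all 3.

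By mean FPKM over the 6 libraries the order of the axis was PDGFRB (27.8), PDGFRA (21.6), FGF5 (15.5), FGF2 (10.7), HGF (9.13), FGF7 (8.80), PDGFC (8.80), FGFR1 (7.18), PDGFD (4.35) and PDGFA (0.626). PDGFRB was above PDGFRA, and FGF5 above FGF2, in 6 of 6 libraries. Neighbors between these did not keep their order, since PDGFRA was above FGF5 in 3 of 6 libraries, FGF2 above HGF in 4, HGF above FGF7 in 2 and FGF7 above PDGFC in 2. The order also rests on the length that each value was divided by. This length, as recovered from the values, was longer than the union of GENCODE v29 exons for 9 of 10 genes, by 2.73-fold for FGFR1 and 2.28-fold for FGF5. Put on the union of exons, the mean level of FGF5 (35.4) was next to that of PDGFRB (34.9), FGFR1 (19.6) came after PDGFRA (26.0), and FGF2 stayed at 10.7. On log2(FPKM + 1) the length also sets how much the added 1 weighs in a change.

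Other genes of the 3 families were mostly at or near 0. Of 28 further ligands, receptors and relatives, 24 had a mean under 1 FPKM, 5 were listed at 0 in every library, and FGFR2 reached at most 0.00281 FPKM in ARID1B cells and 0.000775 FPKM in vector cells. The 4 tested were MET, FGF1, PDGFRL and FGFRL1, of which 0 were called in either direction by limma (3 positive and 1 negative, median log2 change 0.10, beside -0.02 over all genes tested). MET, the receptor of HGF, measured 5.64, 3.94 and 5.42 FPKM in ARID1B replicates 1, 2 and 3, against 3.05, 4.79 and 3.14 FPKM in vector replicates 1, 2 and 3. It was thus high where HGF was low, with a log2 change of 0.37 (SE 0.192, limma adjusted p = 0.552; 0.54 without vector replicate 2) and groups that overlapped.

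FGFRL1, an FGF receptor without a kinase domain, measured 6.33, 4.00 and 5.32 FPKM in ARID1B replicates 1, 2 and 3, against 4.33, 5.73 and 4.57 FPKM in vector replicates 1, 2 and 3. Its log2 change was 0.07 (limma adjusted p = 0.889), or 0.17 without vector replicate 2, and its groups overlapped. FGF1, the acidic FGF, had a log2 change of 0.12 (SE 0.192, limma adjusted p = 0.820), or 0.32 without vector replicate 2, with 1.27 to 1.87 FPKM in ARID1B cells and 1.09 to 2.14 FPKM in vector cells. FGF10, a ligand from lung mesenchyme to epithelium, was under the filter and ranged from 0.0129 to 0.308 FPKM in ARID1B cells and from 0 to 1.47 FPKM in vector cells.

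Among 24 processing enzymes, coreceptors and binding proteins of these ligands 14 were tested, and 0 were higher and 0 lower by limma in all libraries, with 7 positive and 7 negative changes and a median of 0.03. The matrix protein SPARC, which binds PDGF, measured 454, 489 and 447 FPKM in ARID1B replicates 1, 2 and 3, against 316, 281 and 313 FPKM in vector replicates 1, 2 and 3. The groups did not overlap, and the log2 change was 0.61 (SE 0.121, limma adjusted p = 0.285). CD44, the hyaluronan receptor, which also presents growth factors, measured 93.2, 87.4 and 95.4 FPKM in ARID1B replicates 1, 2 and 3, against 62.4, 70.8 and 62.9 FPKM in vector replicates 1, 2 and 3. These groups did not overlap either, and the log2 change was 0.49 (SE 0.114, limma adjusted p = 0.301).

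Without vector replicate 2, 2 genes of this list rose and 1 fell by limma. That fit called 3.11% of the 10416 genes tested, 125 higher and 199 lower. No gene was called with any other single library left out. SPARC rose by 0.56 on the log2 scale (adjusted p = 0.0476) and CD44 rose by 0.55 (adjusted p = 0.0426). NRP1, a coreceptor of several growth factors that was picked from its values, fell by 0.55 (adjusted p = 0.0403), and in all libraries its log2 change was -0.39 (adjusted p = 0.469). NRP1 measured 19.7, 18.7 and 20.1 FPKM in ARID1B replicates 1, 2 and 3, against 30.1, 20.6 and 27.8 FPKM in vector replicates 1, 2 and 3.

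Downstream of the receptors 35 adaptors and signal transducers were tested and 0 were called by limma, with 25 positive and 10 negative changes and a median of 0.15. MAP2K2, a kinase that activates ERK, measured 19.0, 12.9 and 16.3 FPKM in ARID1B replicates 1, 2 and 3, against 18.4, 29.5 and 20.8 FPKM in vector replicates 1, 2 and 3. Its groups overlapped, with a log2 change of -0.47 (SE 0.218, limma adjusted p = 0.509), or -0.28 without vector replicate 2. The median of the list was 0.01 without vector replicate 2.

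Of 28 feedback and response genes 22 were tested, and 0 were called by limma, with 13 positive and 9 negative changes and a median log2 change of 0.30 in all libraries and 0.39 without vector replicate 2. FLRT3, a membrane protein that binds FGF receptors, had 2.26, 1.63 and 2.34 FPKM in ARID1B replicates 1, 2 and 3, against 1.26, 0.895 and 1.16 FPKM in vector replicates 1, 2 and 3. Every ARID1B library was above every vector library, with a log2 change of 0.54 (SE 0.132, limma adjusted p = 0.305). SOCS2, an inhibitor of cytokine receptor signaling, had 1.10, 0.993 and 1.10 FPKM in ARID1B replicates 1, 2 and 3, against 1.41, 1.81 and 1.53 FPKM in vector replicates 1, 2 and 3. Every ARID1B library was below every vector library, with a log2 change of -0.32 (SE 0.095, limma adjusted p = 0.350).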

How the data were processed

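RNA of IMR90 cells was sequenced in 3 ARID1B and 3 vector libraries, grouped by the sample titles. The authors deposited FPKM values for 57232 genes, and the submitters' processing notes list hg19, DESeq2, HTSeq 0.5.3p9 and TopHat2 2.0.11, with no role stated for each. Reads and library totals were worked out from the spacing of low FPKM values with GENCODE v29 lengths, and 100% of the 10416 genes tested came out whole within 0.002 reads in all libraries. Totals are 63386813 to 91924514 reads. A shared divisor of the reads of a gene would make its length and reads too small by that factor.

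Values were tested as log2(FPKM + 1) by limma 3.58.1 in R 4.3.3, with its variance trend, where the mean over all libraries was 1 FPKM or more. This scale understates changes of low genes. Adjustment (Benjamini-Hochberg) ran over all genes tested, with a threshold of 0.05. Ratios were compared by exact permutation with numpy 2.4.6. Scripts were tested on simulated data.

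The genes of the axis and all lists were chosen with earlier results of these data known. Named were all 10 genes, MET, FGFRL1, from each other list up to 4 called genes or the 2 of smallest p, the 2 genes most like a tested gene whose groups did not overlap, and overlapping or copied genes. A few of the genes so chosen are not shown in the text. Genes named outside this rule are given as background levels or said to be picked from their values. Alternatives were pseudocount 0.1, no filter or a mean of 5 FPKM, median-ratio and quantile scaling, no variance trend, the replicate block, each library left out, both libraries numbered 3 left out, correction for GC content and length (spline with 5 degrees of freedom, 10195 genes), and voom on the recovered reads.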

Additional observations from a re-analysis of the deposited data

How the results depend on the processing

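No gene of the axis was called under any of the 16 alternatives, and FGF2 was positive in all 16 (0.39 to 0.76, limma adjusted p 0.159 to 0.999), as were FGF5 and FGF7. PDGFA entered only the fit with no filter, and PDGFD left that with a mean of 5 FPKM. Of 10416 genes 3 were called; the count was 0 with no filter on low values, without both libraries numbered 3 and with the replicate block, 6 after correction for GC content and length, 1 by voom, and 0 to 324 with 1 library left out, 324 being without vector replicate 2. Median-ratio and quantile scaling each called 2.

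Changes near 0 turned sign. With 1 library left out PDGFRA ranged from -0.90 to 0.10, PDGFRB from -0.48 to 0.14, PDGFC from -0.33 to 0.22, PDGFD from -1.04 to 0.40, FGFR1 from -0.15 to 0.13 and HGF from -0.47 to 0.39. Without both libraries numbered 3 PDGFRA was 0.016, PDGFRB 0.13, PDGFC 0.10 and PDGFD 0.31. PDGFC was 0.0034 and PDGFD 0.12 with pseudocount 0.1, PDGFC was 0.0082 with median-ratio scaling, and by voom they were 0.011 and 0.29. After correction for GC content and length FGFR1 was -0.038 and HGF -0.17. With 1 library left out the log2 ratio difference ranged from -0.44 to -0.03 for PDGFRA over PDGFRB, -0.30 to 0.17 for FGF7 over FGF2 and -1.19 to 0.12 for HGF over MET, and without both libraries numbered 3 it was -0.11, 0.28 and -0.02 for the same ratios. The cause was not tested.

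Same-numbered libraries did not deviate together: their deviations correlated at -0.46, -0.43 and -0.17 over genes. Across numbers, ARID1B replicate 1 correlated with vector replicates 2 and 3 at 0.46 and -0.41. ARID1B replicate 2 correlated with vector replicates 1 and 3 at 0.43 and 0.40. ARID1B replicate 3 correlated with vector replicates 1 and 2 at -0.11 and 0.14. Whether the samples are paired in another way was not tested. With the replicate block an unadjusted p under 0.05 was reached by 342 genes upward and 262 downward, FGF2 had a limma p of 0.051 (adjusted 0.811; 0.152 unadjusted without both libraries numbered 3), and the ratio differences were -0.19, 0.02 and -0.39.

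With 3 libraries a group and 1 vector library apart, the intervals for PDGFRA, PDGFD and HGF hold changes of over 2-fold either way. Reads per library limit PDGFA (185 to 349) and PDGFD (189 at its lowest) most.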

Other observations

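The genes below were picked after their values were seen. FOS and EGR1 are immediate early genes that growth factor receptors induce through ERK. FOS measured 0.118, 64.0 and 15.2 FPKM in ARID1B replicates 1, 2 and 3, against 0.302, 0.238 and 0.279 FPKM in vector replicates 1, 2 and 3. ARID1B replicates 2 and 3 were thus far above the vector libraries and ARID1B replicate 1 below them, and the log2 change was 3.05 (SE 1.37, limma adjusted p = 0.498). EGR1 measured 21.8, 285 and 87.4 FPKM in ARID1B replicates 1, 2 and 3, against 46.9, 30.7 and 46.2 FPKM in vector replicates 1, 2 and 3, with a log2 change of 1.004 (SE 0.857, limma adjusted p = 0.712). IER3, another early response gene, measured 25.9, 94.4 and 40.1 FPKM in ARID1B replicates 1, 2 and 3, against 29.6, 28.9 and 30.3 FPKM in vector replicates 1, 2 and 3. ARID1B replicate 2, the highest for these genes, was also the ARID1B library with the highest PDGFRA, PDGFD, FGF7 and HGF and the lowest MKI67. It had the lowest FGF5 and PDGFA of the ARID1B libraries. Over all libraries vector replicate 1 had the highest PDGFRA, PDGFD and HGF and the lowest MKI67, with FOS at 0.302 FPKM.

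SPRY2, a feedback inhibitor of FGF receptor signaling, measured 10.3, 14.1 and 11.6 FPKM in ARID1B replicates 1, 2 and 3, against 7.49, 31.2 and 10.6 FPKM in vector replicates 1, 2 and 3. Vector replicate 2, which was lowest for most genes of the axis, was the highest library for SPRY2. Its log2 change was -0.19 with all libraries and 0.38 without vector replicate 2 (limma adjusted p = 0.891 and 0.274).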
